A study of Mus musculus with 16 samples.

Results

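Immunoglobulin gene segments are the germline pieces from which antibody genes are assembled, and their RNA was followed here in cells washed from the airways of mice (bronchoalveolar lavage). The members were chosen by biotype and selected on their summed count: every gene annotated as an immunoglobulin constant (C), variable (V), joining (J) or diversity (D) segment that held at least 10 counts over the 16 libraries. This left 130 of the 264 segments of these biotypes, among 54532 genes in the table, made up of 11 C, 110 V, 9 J and 0 D segments. By chain, 59 belonged to the heavy chain (Igh), 65 to the kappa light chain (Igk) and 6 to the lambda light chain (Igl). Of the 134 segments that were not taken, 56 had 0 counts in every library. Just inside the threshold stood Ighv1-42, Ighv1-66, Igkv12-98, Igkv4-70 and Igkv4-86 with 10 counts each, and just outside it Ighv14-1 and Igkv4-74 with 9 counts each. The IgE constant gene Ighe was not a member.

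The mice had received bleomycin, a DNA-damaging drug used to model lung fibrosis, at 4 U per kg of body weight, or saline, both by the oropharyngeal route, and the lavage cells were taken on day 14. There were 4 groups of 4 libraries: bleomycin males (codes C33, C65, C66 and C67), bleomycin females (C49, C50, C68 and C69), saline males (C70 to C73) and saline females (C74 to C77). All mice were 8 to 10 weeks old. The strain is written C56BL/6J in the sample labels and C57BL/6 in the study design, and no transgene or engineered allele is labelled in any group. Whether a library came from 1 animal or a pool is not given in the sources used here, so p-values measure only the spread between these libraries.

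A B cell builds its heavy chain from 1 V, 1 D and 1 J segment joined to a constant gene, and its light chain from a V and a J segment joined to Igkc or to an Iglc gene. Mature B cells that have not met antigen carry both IgM and IgD, made from Ighm and Ighd by splicing of the same transcript, while class switching moves the V region to an Ighg, Igha or Ighe gene. Plasma cells, the antibody-secreting end stage of B cells, hold far more immunoglobulin RNA per cell than resting B cells.

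The J members are the shortest of the set, and their sequences are printed to show how few bases each one offers and how they differ. Each is 1 annotated transcript of its gene in GENCODE M21, given from 5′ to 3′ on the sense strand with that transcript's coordinates on GRCm38. For Ighj2, Igkj2 and Igkj5 the gene is annotated over more bases (100, 43 and 42) than are printed (48, 39 and 38). In these lines the capitals mark the codons of the Trp/Phe-Gly-X-Gly motif that ends the antigen-binding loop. The motif was searched for as its codons on the sense strand alone. It was found in 8 of the 9 J members and in 12 of all 14 J segments of the table, and Igkj3 held no match.
Ighj1 (chr12:113429781-113429833, minus strand): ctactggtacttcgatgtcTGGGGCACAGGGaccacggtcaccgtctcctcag
Ighj2 (chr12:113429468-113429515, minus strand): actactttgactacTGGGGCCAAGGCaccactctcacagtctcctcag
Ighj3 (chr12:113429085-113429132, minus strand): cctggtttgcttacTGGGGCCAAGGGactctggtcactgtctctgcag
Ighj4 (chr12:113428514-113428567, minus strand): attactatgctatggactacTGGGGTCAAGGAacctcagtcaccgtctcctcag
Igkj1 (chr6:70722562-70722599, plus strand): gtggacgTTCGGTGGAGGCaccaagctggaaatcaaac
Igkj2 (chr6:70722916-70722954, plus strand): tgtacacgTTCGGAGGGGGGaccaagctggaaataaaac
Igkj3 (chr6:70723223-70723260, plus strand): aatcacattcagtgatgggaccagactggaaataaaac
Igkj4 (chr6:70723548-70723585, plus strand): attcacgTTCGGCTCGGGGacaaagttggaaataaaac
Igkj5 (chr6:70723886-70723923, plus strand): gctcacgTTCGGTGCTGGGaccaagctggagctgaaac

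The V members below took the largest share of the heavy-chain or kappa V counts in 1 or more bleomycin libraries. Their last 60 annotated bases are shown, because this end meets the J segment in a rearranged gene. The coordinates in these lines are those of the whole gene, not of the bases printed. The capitals mark the codons of the Tyr-Tyr/Phe/Ile-Cys stretch that precedes the antigen-binding loop, which was found on the sense strand in this window of 109 of the 110 V members and 210 of all 218 V segments.
Ighv1-26 (chr12:114788372-114788805, minus strand): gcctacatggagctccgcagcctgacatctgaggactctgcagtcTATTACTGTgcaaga
Ighv9-3 (chr12:114140692-114141122, minus strand): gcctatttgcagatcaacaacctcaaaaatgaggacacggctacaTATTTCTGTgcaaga
Ighv5-17 (chr12:113859149-113859670, minus strand): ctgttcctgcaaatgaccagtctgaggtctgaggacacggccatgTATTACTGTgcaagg
Igkv1-117 (chr6:68121046-68121827, plus strand): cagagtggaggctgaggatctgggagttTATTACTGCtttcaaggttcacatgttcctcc
Igkv10-96 (chr6:68631963-68632442, minus strand): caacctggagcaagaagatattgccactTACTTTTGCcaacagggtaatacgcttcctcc
Igkv17-127 (chr6:67861153-67861659, plus strand): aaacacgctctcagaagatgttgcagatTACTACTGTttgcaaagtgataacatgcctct

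The 3 lambda constant members are shown over 90 aligned bases at their 5′ end, because these differences tell the genes apart. Here too the coordinates are those of the whole gene. Capitals mark the 21 positions at which the 3 genes are not all alike.
Iglc1 (chr16:19061618-19062071, minus strand): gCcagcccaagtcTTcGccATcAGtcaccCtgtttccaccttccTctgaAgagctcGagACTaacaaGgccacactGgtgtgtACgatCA
Iglc2 (chr16:19198396-19200351, minus strand): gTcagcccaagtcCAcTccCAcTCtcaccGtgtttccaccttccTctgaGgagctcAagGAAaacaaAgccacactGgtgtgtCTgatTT
Iglc3 (chr16:19065230-19065681, minus strand): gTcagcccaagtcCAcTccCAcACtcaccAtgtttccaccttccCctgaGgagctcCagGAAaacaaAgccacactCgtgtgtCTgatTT
In this stretch Iglc2 and Iglc3 differed at 5 positions, Iglc1 and Iglc2 at 19, and Iglc1 and Iglc3 at 20. Over the aligned transcripts Iglc2 and Iglc3 were 95.4% identical, so the split of counts between that pair is uncertain. The same holds for Iglv1 and Iglv2 (97.1%), for Igkv1-117 and its closest copy Igkv1-110 (97.5%), for Igkv17-127 and Igkv17-121 (97.4%), and for Ighv1-26 and Ighv1-18 (96.7%). Ighg2b and Ighg2c were further apart, at 86.4%.

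The libraries held 16385784 to 24567609 counts. The sex-linked genes matched the sex label of all 16 libraries, and the 8 marker genes of resident alveolar macrophages summed to 10348 to 20426 CPM (counts per 1e+06 of the library total) in bleomycin libraries and 17305 to 26750 CPM in saline libraries. Chil3 alone held most of this sum, with 8469 to 17879 CPM in bleomycin libraries and 13370 to 22458 CPM in saline libraries. Over 15257 genes tested with edgeR's quasi-likelihood test, bleomycin against saline averaged over the sexes gave 5300 higher and 4400 lower at an adjusted p below 0.05. Scaled to library totals alone, without the composition factors (TMM), the split was 3720 higher and 7004 lower, and the median log2 fold change of all genes was -0.200 in place of 0.0116. With TMM, 1 of the 8 macrophage markers was called higher and 5 lower in the average, where 34.7% and 28.8% of all genes were. Lavage cells are a mixture, and in such bulk RNA fewer cells of a type and less RNA per cell cannot be told apart.

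Immunoglobulin RNA was far higher in bleomycin libraries and a small part of every library. The 130 members together held 2216, 7505, 4955 and 5541 counts in bleomycin males C33, C65, C66 and C67, and 5432, 5689, 1133 and 2198 counts in bleomycin females C49, C50, C68 and C69. In saline males C70 to C73 they held 11, 38, 4 and 29 counts, and in saline females C74 to C77 42, 38, 28 and 27 counts. Every bleomycin library was above every saline library. Scaled to library totals, the sum was 224.3 ± 107 CPM in bleomycin males, 168.3 ± 101 CPM in bleomycin females, 1.16 ± 0.94 CPM in saline males and 1.87 ± 0.39 CPM in saline females (SD, n = 4 each). Among bleomycin libraries the sum spread widely, with 353 CPM in C65 and 53.5 CPM in C68 at the ends. The B cell markers Ms4a1, Cd79a, Cd79b and Pax5 summed to 17.1 to 134 CPM in bleomycin libraries, with the same libraries at the ends, and to 0.26 to 0.72 CPM in saline libraries, where Cd79a alone was read in every library and the other 3 markers were at 0 in 1 or more. The 8 T cell markers ran from 122 to 397 CPM in bleomycin libraries and from 1.27 to 3.58 CPM in saline libraries. The 5 red blood cell markers Hba-a1, Hba-a2, Hbb-bs, Hbb-bt and Alas2 summed to 63.7 to 5408 CPM in bleomycin libraries and 7.79 to 464 CPM in saline libraries, and C65 was the highest in them too. These groups overlapped, since C33 (63.7 CPM) and C68 (159 CPM) lay below the saline female C74 (464 CPM). All 5 were called higher in males, with a median log2 fold change of 5.11, where 31.5% of all genes tested were. In females 0 of 5 were called, with a median of 1.68, where 26.7% of all genes were. Between bleomycin males and bleomycin females 0 of 5 were called, and 0 of 5 in the interaction of bleomycin and sex. The part of B cell number or of blood in the immunoglobulin sums was not tested.

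Most members were read in bleomycin libraries alone. Of the 130, 120 had 0 counts in all 8 saline libraries, and 40 had a count in all 8 bleomycin libraries. The lowest bleomycin CPM was above the highest saline CPM in 38 members, 9 of them constant genes. Over all 22735 genes with the same summed count, 11.1% did so. Since the summed count that selected the members came almost wholly from bleomycin libraries, these counts describe the choice and nothing is read from the comparison. In 3 members, Ighm, Igha and Ighg2c, the saline libraries alone reached 10 counts, with 81, 82 and 23 in all.

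**Figure D1:**
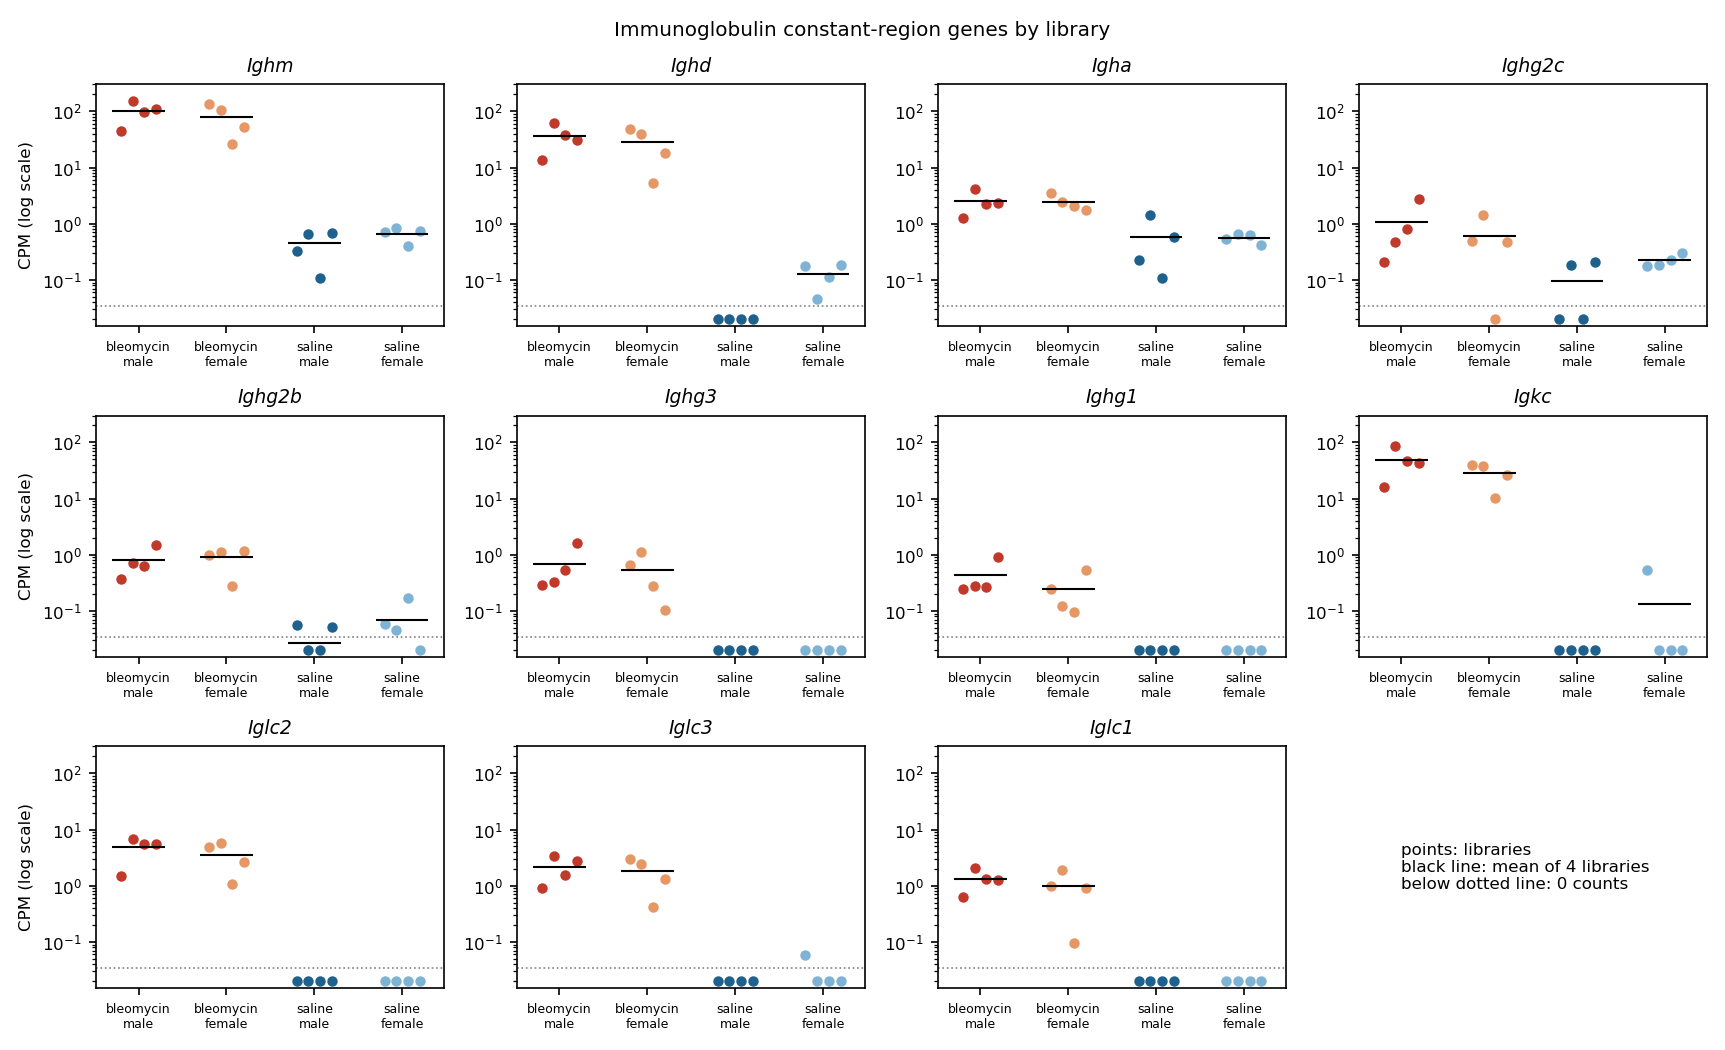
CPM (by library total, log axis) of the 11 constant-region members in bleomycin males, bleomycin females, saline males and saline females; each point is 1 library, the black line is the mean of 4 libraries, and points below the dotted line had 0 counts. Ighm, Ighd and Igkc stand highest in bleomycin libraries, while Igha and Ighg2c are the constant members whose bleomycin and saline libraries overlap.

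Ighm encodes the constant region of IgM and was the most counted member. It had 1093, 3179, 2206 and 2619 counts in bleomycin males and 2673, 2600, 567 and 974 counts in bleomycin females, against 6, 11, 2 and 13 counts in saline males and 12, 18, 7 and 12 counts in saline females. The groups did not overlap, and C68 and C69 were the lowest bleomycin libraries in counts. In edgeR's quasi-likelihood test its log2 fold change was 8.04 (SE 0.59, adjusted p = 2.77e-09) in males and 7.02 (SE 0.56, adjusted p = 8.70e-09) in females, and all 4 bleomycin libraries of each sex were above all 4 saline ones. SE here is approximate, taken from the change and the F statistic.

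Ighd, the constant gene of IgD, was close to absent without bleomycin. Counts were 335, 1313, 848 and 734 in bleomycin males and 982, 965, 114 and 338 in bleomycin females, against 0 in all 4 saline males and 3, 1, 2 and 3 in saline females. With 3 counts over the 4 saline male libraries as the floor, pooled Ighd CPM in bleomycin males was at least 847-fold higher. The ratio of Ighd to Ighm counts lay between 0.201 in C68 and 0.413 in C65, with a median of 0.357 over the 8 bleomycin libraries.

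Like Ighg2c, Igha (the constant gene of IgA, the main antibody of mucosal surfaces) had bleomycin libraries that overlapped the saline ones. It had 31, 90, 50 and 57 counts in bleomycin males and 70, 59, 44 and 33 counts in bleomycin females, against 4, 24, 2 and 11 counts in saline males and 9, 14, 11 and 7 counts in saline females. In CPM the groups overlapped: the lowest bleomycin library, C33, had 1.28 CPM and the highest saline library, C71, had 1.46 CPM. The averaged log2 fold change was 2.31 (SE 0.37, adjusted p = 2.44e-05, edgeR's quasi-likelihood test), the smallest among the 15 members that could be tested. In saline libraries Igha and Ighm held about equal numbers of counts, 82 and 81 in all.

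The IgG genes were minor. Ighg2c, the IgG2 gene of this strain, had 5, 10, 18 and 67 counts in bleomycin males and 10, 35, 0 and 9 in bleomycin females, against 0, 3, 0 and 4 in saline males and 3, 4, 4 and 5 in saline females. Its groups overlapped, since C68 had none. Ighg2b had 9, 15, 14 and 36 counts in bleomycin males and 20, 28, 6 and 22 in bleomycin females, against 1, 0, 0 and 1 in saline males and 1, 1, 3 and 0 in saline females. Its averaged log2 fold change was 4.27 (SE 0.55, adjusted p = 1.98e-06, edgeR's quasi-likelihood test), and its groups did not overlap. Ighg2b passed the filter through the bleomycin libraries, so its direction was largely fixed by it. Ighg3 (2 to 39 counts) and Ighg1 (2 to 22 counts) were read in every bleomycin library and in no saline library. In all 4 IgG genes C67 was the highest of the bleomycin males. Ighg2c and Ighg1 did not pass the filter on low counts.

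To compare levels between genes of different length, FPKM (counts per gene length, from the deposited table) were used. Among the heavy-chain constant genes of bleomycin libraries, IgM took 71.97% ± 2.41 of FPKM in males and 72.9% ± 3.82 in females, and IgD 24.6% ± 3.69 in males and 23.0% ± 4.96 in females (SD, n = 4 each). The 4 IgG genes together took 2.14% ± 1.73 in males and 1.93% ± 0.785 in females, and IgA 1.29% ± 0.183 in males and 2.12% ± 1.48 in females. In each of these the sexes differed by less than the SD of the female libraries. Single libraries stood apart: C67 had 4.67% IgG where the other bleomycin libraries had 0.751% to 2.71%, and C68 had 4.31% IgA where the others had 1.13% to 1.70%. C68 also had the highest share of IgM (78.6%) and the lowest share of IgD (15.7%).

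**Figure D2:**
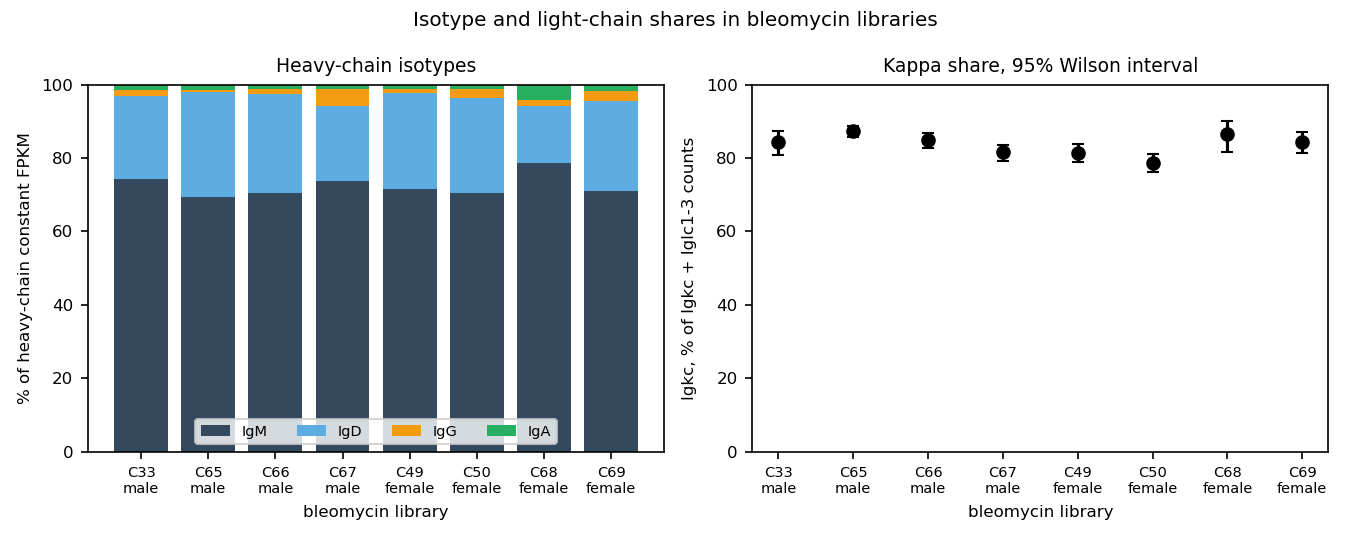
Left, the share of IgM, IgD, IgG and IgA in the summed FPKM of heavy-chain constant genes in each of the 8 bleomycin libraries, stacked to 100%; right, the kappa share of light-chain constant counts with its 95% Wilson interval. IgM and IgD fill most of each bar, and the kappa share lies between 78.7% and 87.3%.

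Igkc, the single kappa constant gene, had 393, 1807, 1041 and 1024 counts in bleomycin males and 776, 928, 216 and 498 counts in bleomycin females. It had 0 counts in all 4 saline males, and among saline females 9 counts in C74 and 0 in the other 3. C74 also held 3 counts of Igkj5 and was the 1 saline library with any kappa count. Against a floor of 3 counts over the 4 saline male libraries, Igkc in bleomycin males was higher by at least 1118-fold. On the FPKM scale it was the most abundant member, at 97.2 ± 59.1 in bleomycin males and 55.0 ± 24.1 in bleomycin females, while Ighm stood at 57.8 ± 25.4 and 43.1 ± 24.3 FPKM in the same groups (SD, n = 4 each).

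The lambda constant genes were led by Iglc2, with 36, 146, 122 and 134 counts in bleomycin males, 96, 143, 23 and 50 counts in bleomycin females and 0 in all saline libraries. Iglc3 had 22, 73, 34 and 67 counts in bleomycin males and 61, 61, 9 and 25 in bleomycin females, and Iglc1 15, 44, 30 and 31 counts in bleomycin males and 20, 47, 2 and 17 in bleomycin females. A single Iglc3 count, in C74, was the only lambda constant count of the saline libraries. Iglc2 was the highest of the 3 in each bleomycin library, also per length, at 8.59 ± 4.21 FPKM in males and 6.04 ± 3.41 FPKM in females, subject to the likeness of Iglc2 and Iglc3 given above.

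Kappa made up most of the light-chain constant counts in each bleomycin library. Igkc made up 84.3%, 87.3%, 84.8% and 81.5% of light-chain constant counts in bleomycin males C33, C65, C66 and C67, and 81.4%, 78.7%, 86.4% and 84.4% in bleomycin females C49, C50, C68 and C69. The groups overlapped, with means of 84.5% ± 2.37 in males and 82.7% ± 3.37 in females (SD, n = 4 each). The highest and the lowest of these, C65 and C50, had 95% Wilson intervals of 85.8% to 88.7% and 76.3% to 81.0%, which did not overlap. The shallowest, C68, had one of 81.6% to 90.1%, and such intervals cover counting error only. With all segments counted in place of the constant genes, the kappa share was 84.6% ± 2.17 in males and 84.2% ± 3.03 in females.

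Constant genes held most of the immunoglobulin counts. In bleomycin libraries they took 86.1% to 89.99%, V members 9.78% to 13.1% and J members 0.227% to 1.68%. The chains differed in how many V counts came with a constant count: for every 100 constant counts there were 5.69 to 7.58 V counts in the heavy chain, 24.0 to 45.3 in kappa and 10.9 to 42.9 in lambda over the 8 bleomycin libraries. These are counts, not levels per length. In the 8 saline libraries together the V members held 2 counts, 1 of Iglv1 in C74 and 1 of Ighv6-3 in C76, and 108 of the 110 V members had none.

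Heavy-chain V counts were spread over many segments. The 48 members held 94, 263, 194 and 209 counts in bleomycin males C33, C65, C66 and C67 and 233, 261, 56 and 83 counts in bleomycin females C49, C50, C68 and C69. Thinned to 56 counts each, the libraries held an expected 23.0 to 29.5 of them. Ighv1-26 led in C33, C65, C66, C49 and C68, with 5 libraries giving shares of 8.58% to 10.7% of heavy-chain V counts. Ighv9-3 led in C67 with 16 of 209 counts (7.66%) and in C50 with 21 of 261 (8.05%), and had no count in C68. In C69 the leader was Ighv5-17, with 14 of 83 counts (16.9%, 95% Wilson interval 10.3% to 26.3%), where the other bleomycin libraries had at most 7 of its counts each. Ighv3-6 (68 counts), Ighv1-82 (58) and Ighv1-55 (51) followed Ighv1-26 (97) and Ighv9-3 (69) in the sum over all libraries.

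By family, the 27 Ighv1 members, the largest V family of the mouse, took 43.4% to 66.2% of the heavy-chain V counts. The share was 61.4% ± 6.88 in bleomycin males and 51.9% ± 5.90 in bleomycin females (SD, n = 4 each), and the ranges overlapped, since C67 (51.2%) lay below 3 of the females. The 5 Ighv5 members took 8.22% ± 1.07 in males and 15.7% ± 9.96 in females, a mean raised by C68 (17.9%) and C69 (28.9%), the libraries with the fewest V counts. Among kappa V families Igkv4 (13 members) led with 10.1% to 20.7% of kappa V counts, followed by Igkv1 (3 members, 8.06% to 19.6%) and Igkv6 (6 members, 7.38% to 18.9%). Igkv17 took 16.4% in C69, and 0.862% to 7.62% in the other bleomycin libraries.

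**Figure D3:**
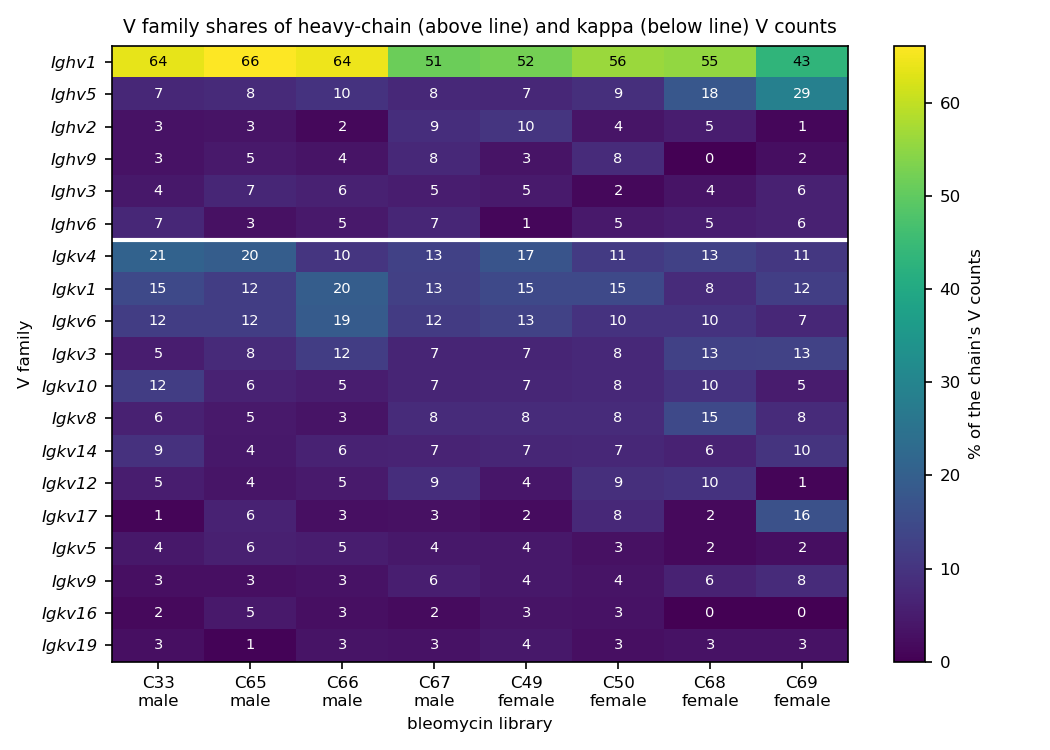
Share of each V family, in % of the heavy-chain V counts (rows above the white line) or of the kappa V counts (rows below it), in each bleomycin library; families with at least 60 counts over the bleomycin libraries are shown. Ighv1 is the leading heavy-chain family in all 8 libraries, and C69 is set apart by Ighv5 (28.9%) and Igkv17 (16.4%).

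Kappa V counts were likewise spread over 59 members, with 116, 434, 286 and 387 counts in bleomycin males C33, C65, C66 and C67 and 321, 420, 62 and 122 counts in bleomycin females C49, C50, C68 and C69. Thinned to 62 counts, the libraries held an expected 28.0 to 34.0 of the 59. Igkv1-117 had 6, 21, 29 and 25 counts in bleomycin males and 22, 30, 1 and 4 in bleomycin females, and led in C66, C67, C49 and C50. Igkv10-96 had 12, 25, 10 and 13 counts in bleomycin males and 14, 19, 4 and 4 in bleomycin females, and led in C33 and, tied with Igkv1-135 at 25 of 434 counts, in C65. In C69 the leader was Igkv17-127, with 15 of 122 counts (12.3%, 95% Wilson interval 7.59% to 19.3%), while C33 had none of it. In C68, 8 segments were tied at 4 of 62 counts: Igkv10-96, Igkv12-44, Igkv3-7, Igkv4-91, Igkv6-17, Igkv8-27, Igkv8-30 and Igkv9-120. Igkv6-15 (82 counts) and Igkv1-110 (81 counts) complete the 5 most counted kappa V members.

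The 3 lambda V members were all read. Iglv1 had 14, 29, 18 and 30 counts in bleomycin males and 24, 24, 3 and 4 in bleomycin females. Iglv3 had 6, 22, 28 and 28 counts in bleomycin males and 34, 23, 0 and 1 in bleomycin females, and Iglv2 had 5, 13, 10 and 22 in bleomycin males and 18, 19, 4 and 5 in bleomycin females. C68 and C69 had the fewest Iglv1 and Iglv3 counts of the bleomycin libraries.

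V members of the whole locus were read. Each locus was divided into 3 stretches of equal length between the first J segment and the farthest V gene. In the heavy chain these took a median of 30.4% (nearest), 37.9% (middle) and 32.7% (farthest) of V counts over the 8 bleomycin libraries. The nearest stretch held 13 members of 38 V genes, the middle 16 of 41 and the farthest 19 of 34. In kappa the medians were 37.0%, 27.6% and 34.3%, with 27 members of 42 V genes, 17 of 32 and 15 of 26. The ranges over libraries overlapped between the heavy-chain stretches, for example 20.5% to 39.8% in the nearest and 31.7% to 47.8% in the middle one. In kappa the nearest stretch, at 33.3% to 45.2%, lay above the middle one, at 18.7% to 31.2%, in each library, and it also held more members. The farthest kappa stretch, at 27.5% to 48.0%, overlapped both, and no test was made of these shares.

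**Figure D4:**
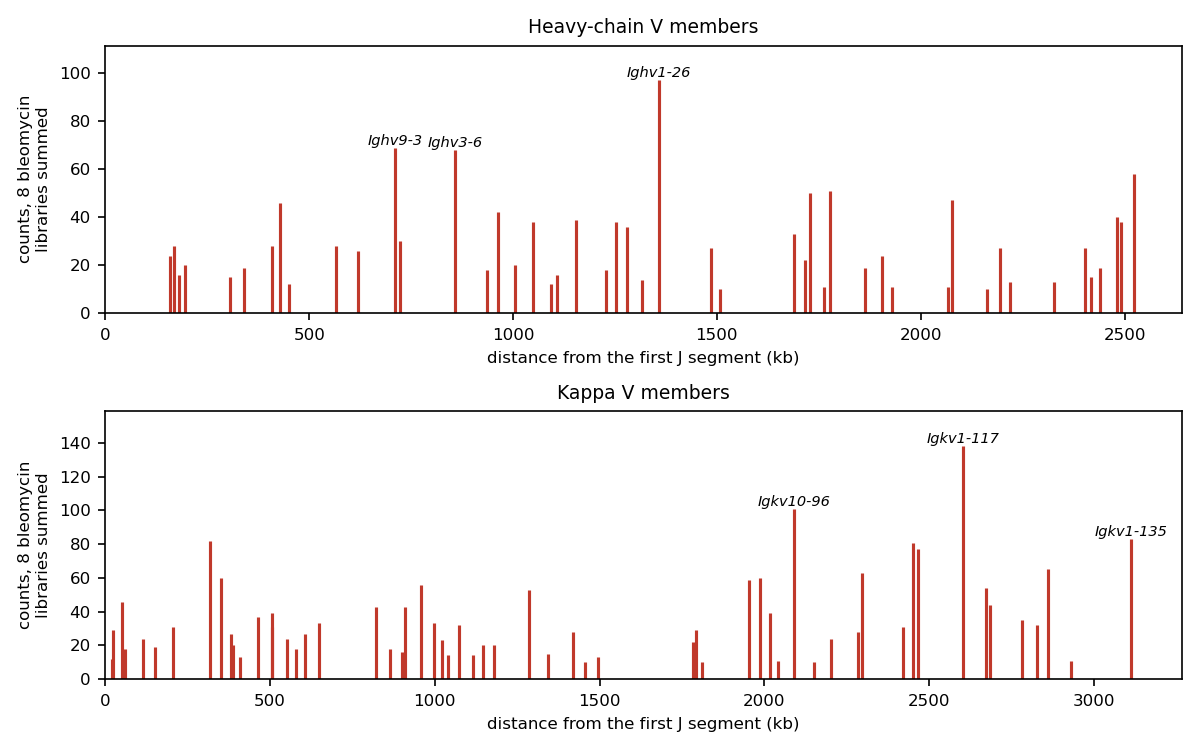
Counts of each V member summed over the 8 bleomycin libraries (vertical axis) against its distance from the first J segment of its chain in kb (horizontal axis), heavy chain above and kappa below; the 3 most counted members of each chain are named. Counted V members lie along both loci from end to end, with Ighv1-26 at 97 and Igkv1-117 at 138 counts as the tallest lines.

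The J members, whose sequences stand above, had few counts. Igkj5 was read in every bleomycin library, with 6, 9, 8 and 8 counts in bleomycin males and 14, 10, 2 and 3 in bleomycin females, against 0 in saline males and 3, 0, 0 and 0 in saline females. Ighj4 had 9, 19, 7 and 5 counts in bleomycin males and 10, 4, 5 and 0 in bleomycin females, and none in saline libraries. Igkj3, the segment without the motif match, still had 0, 1, 6 and 3 counts in bleomycin males and 11, 2, 1 and 0 in bleomycin females. No J member reached 100 counts in all, and single J segments were not tested between libraries.

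Of the 130 members, 15 passed the filter on low counts and were tested with all 15257 genes. They were Ighm, Ighd, Igha, Ighg2b, Ighg3, Igkc, Iglc1, Iglc2, Iglc3, Igkv1-117, Igkv10-96, Igkv14-111, Iglv1, Iglv2 and Iglv3. All 15 were called higher at an adjusted p below 0.05 under bleomycin averaged over the sexes, where 34.7% of all genes tested were. All 15 were also called higher in males, against 31.5% of all genes, and in females, against 26.7%. Ighm and Igha had enough saline counts to pass the filter without bleomycin. The other members passed it through the bleomycin groups, so that their direction was largely fixed by it. Nothing is read from these counts of members called. Without the filter, 21.6% of 30188 genes were called higher in the average, 17.6% in males and 14.7% in females. The averaged log2 fold change had a median of 7.03 over the 15, beside 0.0116 over all genes. With TMM factors left out the 15 remained called, with a median of 6.95 beside -0.200 over all genes.

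Male and female bleomycin libraries could not be told apart in any tested member, within a wide spread. In edgeR's quasi-likelihood test 0 of the 15 members were called between bleomycin males and bleomycin females, and 0 reached an unadjusted p below 0.05; of all genes 0.059% were called. DESeq2 also called 0. The log2 fold change of males over females ran from -0.13 (Ighg2b, SE 0.52) to 0.81 (Igkc, SE 0.44), and was above 0 for 14 of the 15 members, with a median of 0.45 beside -0.00669 over all genes. Members of 1 library share its cells, so these are not 14 separate findings. For Ighm the difference was 0.42 (SE 0.35, adjusted p = 0.995), with 45.1 to 150 CPM in males and 26.8 to 134 CPM in females. The 4 B cell markers summed to 31.2 to 134 CPM in males and 17.1 to 103 CPM in females, and their part in the difference was not tested.

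**Figure D5:**
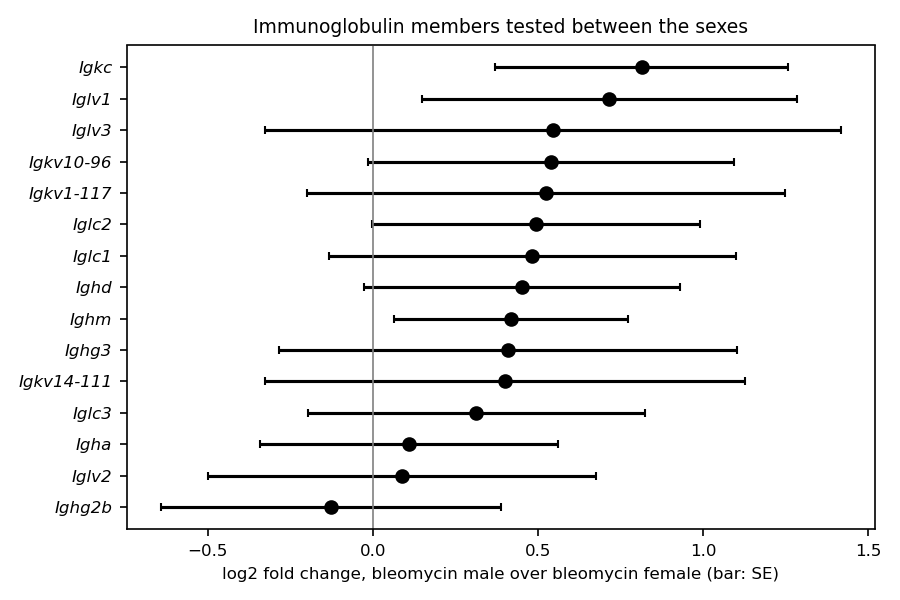
Log2 fold change of bleomycin males over bleomycin females for the 15 tested members (points), with the approximate SE as bars, from edgeR. The points run from -0.13 for Ighg2b to 0.81 for Igkc, and none was called.

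Under saline 0 of the 15 members were called between males and females, with 0 at an unadjusted p below 0.05 and 0 by DESeq2, while 0.269% of all genes were called. Ighd had 0 counts in 4 saline males and 9 counts over 4 saline females, a difference that did not pass (adjusted p = 0.718, edgeR's quasi-likelihood test). The interaction, which asks whether the bleomycin effect differed between the sexes, called 0 of the 15 members, again with 0 at an unadjusted p below 0.05 and 0 by DESeq2, and 0.00655% of all genes. The smallest adjusted p of a member in it was 0.688, for Igkc. Ighg3, Iglc1, Iglc2, Iglv2, Iglv3, Igkv1-117, Igkv10-96 and Igkv14-111 had no count in any saline library. Their outcome under saline was therefore fixed, and in the interaction it rested on the bleomycin libraries alone. Nothing is read from these members in either test.

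Genes that B cells use beside their immunoglobulin were examined next. Of 23 genes of B cell identity and the B cell receptor, all 23 could be tested, 22 rose under bleomycin averaged over the sexes and 1 fell, with a median log2 fold change of 6.50 beside 0.0116 over all genes, of which 34.7% rose. For 11 of the 23 the 8 saline libraries held fewer than 10 counts in all. Only a few of the 23, Btk, Cd22 and Tnfrsf13b among them, had enough saline counts to pass the filter without bleomycin. The rest passed it through the bleomycin libraries. Their direction was largely fixed by it, and nothing is read from the number that rose or from the median. Btk, a kinase of the receptor pathway that myeloid cells also express, fell by 0.31 on the log2 scale (SE 0.05, adjusted p = 4.53e-05, edgeR's quasi-likelihood test). Cd22, an inhibitory receptor of B cells, was at 0.15 (SE 0.05, adjusted p = 0.0161) and turned to -0.06 (adjusted p = 0.371) with library totals alone, under which 21 rose. It ran from 133 to 179 CPM in bleomycin libraries and from 146 to 175 CPM in saline libraries, and which cells held Cd22 was not tested. Cd79a, the signalling partner of membrane immunoglobulin, had 298, 1366, 714 and 700 counts in bleomycin males and 821, 867, 170 and 334 in bleomycin females, against 5, 5, 2 and 3 in saline males and 2, 5, 2 and 6 in saline females. Ighm counts per Cd79a count lay between 2.33 (C65) and 3.74 (C67) and Igkc counts per Cd79a count between 0.945 (C49) and 1.49 (C69) in bleomycin libraries, a narrower range than that of either gene. Tnfrsf13b, the receptor TACI of B cells, rose by 0.72 on the log2 scale (SE 0.09, adjusted p = 1.56e-06, edgeR's quasi-likelihood test). It ran from 25.8 to 37.7 CPM in bleomycin libraries and already from 17.6 to 27.1 CPM in saline libraries. In those saline libraries the B cell markers summed to 0.26 to 0.72 CPM, and which cells held Tnfrsf13b was not tested.

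Of 10 listed genes of plasma cells and of antibody secretion, 8 could be tested. Under bleomycin averaged over the sexes 4 rose and 3 fell, with a median log2 fold change of 0.44, and over all genes tested 34.7% rose and 28.8% fell. Sdc1, the surface proteoglycan CD138 of plasma cells, epithelium and other cells, had 250, 178, 237 and 362 counts in bleomycin males and 198, 299, 243 and 253 in bleomycin females, against 11, 15, 7 and 3 in saline males and 3, 1, 5 and 1 in saline females. All bleomycin libraries were above all saline ones, as in 11.1% of the 22735 genes with a summed count of at least 10. The log2 fold change of Sdc1 was 5.61 (SE 0.27, adjusted p = 2.80e-12, edgeR's quasi-likelihood test). Sdc1 passed the filter through the bleomycin libraries, so its direction was largely fixed by it. C68, with the fewest immunoglobulin counts of the bleomycin libraries, had 243 counts of Sdc1 and C65, with the most, had 178. Fkbp11, a peptidyl-prolyl isomerase of the secretory pathway, had 64 to 146 counts in bleomycin libraries and 9 to 18 in saline libraries, and rose by 2.71 on the log2 scale (SE 0.23, adjusted p = 6.65e-09, edgeR's quasi-likelihood test). Mzb1, a chaperone of B and plasma cells, had 26, 83, 73 and 69 counts in bleomycin males and 76, 81, 14 and 27 in bleomycin females, against 0 in saline males and a single count in saline females. It is among the 4 that rose, but it passed the filter through the bleomycin libraries, so its direction was largely fixed by it. Jchain, which links IgM and IgA into polymers and is high in plasma cells, had 2, 11, 4 and 7 counts in bleomycin males and 5, 4, 6 and 5 in bleomycin females, against 0, 1, 0 and 0 in saline males and 0 in saline females, and did not pass the filter. Tnfrsf17, the plasma cell receptor BCMA, had at most 5 counts in any library. Xbp1, the secretory transcription factor that many cells use, fell by 0.84 on the log2 scale (SE 0.10, adjusted p = 5.56e-07, edgeR's quasi-likelihood test), and Prdm1, the plasma cell factor Blimp-1, which T cells and macrophages also express, fell by 0.40 (SE 0.09, adjusted p = 5.63e-04). Derl3, a protein of endoplasmic reticulum degradation, fell by 0.87 (SE 0.27, adjusted p = 0.00980, edgeR's quasi-likelihood test). Irf4, a transcription factor of B, plasma and T cells, rose by 0.92 (SE 0.16, adjusted p = 8.54e-05). Txndc5, an endoplasmic reticulum thiol isomerase that did not pass with TMM, was also called lower with library totals alone, which gave 4 that rose and 4 that fell.

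Genes of segment joining and class switching held few counts, apart from Ung. Of 7 listed genes 2 could be tested. Dntt, which adds bases at the joints during V, D and J joining, had 7, 32, 19 and 22 counts in bleomycin males and 32, 35, 0 and 4 in bleomycin females and none in saline libraries. It was called higher in the average, where 34.7% of all genes tested were. Dntt passed the filter through the bleomycin libraries alone, so its direction was fixed by it and nothing is read from the call. Ung, a repair enzyme of switching and of all dividing cells, did not pass at 0.07 (SE 0.12, adjusted p = 0.624, edgeR's quasi-likelihood test). Rag1 had 1 count in all libraries and Rag2 none, and Igll1, a part of the surrogate light chain of precursor B cells, had 1. Vpreb1, another part of that light chain, had at most 10 counts in any library.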

How the data were processed

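RNA sequencing counts of 16 lavage libraries were used, 4 in each of 4 groups. The submitters' processing notes name featureCounts 1.5.0-p3, HISAT2 2.0.5, fastp 0.12.2 and a DESeq2 release that is not given, as well as the builds mm10 and mm9 with no role. The authors deposited unnormalized counts for each Ensembl gene. The authors also deposited an FPKM table, whose values equal the counts divided by gene length and by 1 constant per library. Strand setting and the treatment of reads that match several places are not given in the sources used here. Near-identical segments can share reads.

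The members and gene lists were chosen with earlier results of these data known. Columns were matched to samples by the code in their names, with 0 columns left over. All 130 members have the coordinates of GENCODE M21 (GRCm38), from whose transcripts the sequences were taken. Members and identities were computed with Python 3.11.15, scipy 1.17.1 and Biopython 1.88. CPM is a count per 1e+06 of the library total, and shares carry 95% Wilson intervals. Pooled folds against 0 use a floor of 3 counts over the 4 libraries of a group.

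Genes were filtered with filterByExpr (minimum count 10, by group), which left 15257, scaled by TMM and fitted over all 16 libraries with 1 coefficient per group in edgeR 4.0.16 (quasi-likelihood F test, R 4.3.3). Calls were made at a Benjamini-Hochberg adjusted p below 0.05, taken over all genes tested. The procedure was tested on simulated data. Sums and shares over members got no test. Alternatives were library totals in place of TMM, no filter, only the 2 groups compared, DESeq2 1.42.0, counts in place of FPKM, and each library left out in turn. The authors' 5 comparison tables were not used. No batch, pair or litter is labelled. In 3 of the gene lists, 1 gene is not reported here.

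Named were all constant members, the 5 most counted V members of each chain, every V member leading its chain in a bleomycin library, and up to 4 of the most counted genes of each list. Ighv6-3, Igkv14-111, Ighj4, Igkj3, Igkj5, Mzb1, Sdc1, Fkbp11, Derl3, Jchain, Tnfrsf17, Rag1, Rag2, Igll1 and Chil3 were named after their values were seen.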

Additional observations from a re-analysis of the deposited data

Results flagged for a closer look

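Of 143 sets of 4 libraries examined for a sample far from the other 3, 13 had one, where chance gives about 1 in 20 if the sets are independent. Many of these sets share libraries and counts, so no excess over chance is read from this. In bleomycin males, C67 had 0.914 CPM of Ighg1 where the others had 0.248 to 0.282 CPM, C65 had 0.565 CPM of Ighv1-55 (others 0.166 to 0.206), and C65 had 1.18 CPM of Igkv10-96 (others 0.449 to 0.540). C33 had 0.0826 CPM of Igkv6-15, below 0.800 to 0.897 CPM in the others. Also in bleomycin males, Ighv5-17 took 1.14% of heavy-chain V counts in C65 (others 3.09% to 3.35%), the Ighv1 family 51.2% in C67 (others 63.8% to 66.2%), and the Igkv6 family 18.9% of kappa V counts in C66 (others 11.6% to 12.1%).

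The other 6 were all in bleomycin females, each set by C68, the library with the fewest immunoglobulin counts. IgM took 78.6% of heavy-chain constant FPKM in C68 (others 70.4% to 71.5%) and IgD 15.7% (others 24.5% to 26.1%), with 0.201 Ighd counts per Ighm count (others 0.347 to 0.371). Igkv9-120 took 6.45% of its 62 kappa V counts (others 3.10% to 3.28%), Igkv3-7 6.45% (others 0 to 0.312%), and the Igkv8 family 14.5% (others 8.10% to 8.20%).

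Immunoglobulin pseudogenes and segments of other immunoglobulin biotypes, 165 genes that belong to no comparison above, held 37 counts in bleomycin males and 39 counts in bleomycin females, against 0 in all 8 saline libraries.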

How the results depend on the processing

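Without the filter on low counts, 128 of the 130 members were called higher under bleomycin averaged over the sexes, 103 in males and 78 in females, in place of 15 each, where 21.6%, 17.6% and 14.7% of all 30188 genes were. The members were selected on counts almost wholly from bleomycin libraries, so nothing is read from these shares. Ighg1 and Ighg2c were then at log2 fold changes of 5.83 and 2.59. With only the 2 groups compared in the fit, 8 were called in males and 5 in females. With 1 library left out, 17 to 23 were called in the average, 17 to 23 in males and 18 to 22 in females, since the filter then needs fewer libraries. The 23 in the average came without C33, without C68 or without any 1 saline library, and the 23 in males without C33 or any 1 saline male. For the fits of 2 groups and those with 1 library left out, the share of all genes called was not computed. Nothing is read from the counts of members called in them. The IgA share of bleomycin males was 1.80% with counts in place of FPKM, in place of 1.29%. The other 145 alternative values of counts, shares and sums stayed within 1.5 times or 1 SD, among them 0 members called between the sexes under either treatment and in the interaction. For the 14 named members that were tested, the change averaged over the sexes was followed through the alternatives. All 266 of these values kept direction and call, with log2 fold changes of 2.10 to 12.63 and adjusted p up to 9.94e-04 (edgeR or DESeq2). The fits of only 2 groups hold no such average and are not among them. Apart from Ighm and Igha, the 14 passed the filter through the bleomycin groups. Their direction was largely fixed by that, so nothing is read from its being kept. No paired analysis was possible because the codes of the libraries are not shared between groups. C68 and C69, with 56 and 83 heavy-chain V counts, limit what can be said of single V and J segments.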

Other observations

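The 78 segments of these biotypes with 1 to 9 counts, too few to be members, held 341 counts in bleomycin libraries and 5 in saline libraries. Diversity segments, which are only a few bases long, held 8 counts over all 17 heavy-chain D genes, and the 5 lambda J segments held 8. The 5 leading heavy-chain V members together took a median of 23.5% of heavy-chain V counts over the 8 bleomycin libraries, from 14.5% in C69 to 31.6% in C65. The 5 leading kappa V members took a median of 21.4% of kappa V counts, from 16.1% in C68 to 30.1% in C66. Ighm counts per count of Trac, the T cell receptor alpha constant gene, lay between 2.09 in C68 and 3.79 in C50 over the bleomycin libraries.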
